A study of Rattus norvegicus with 18 samples.

Results

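The genes followed here were 6 subunits of the phagocyte NADPH oxidase and its relatives: Cybb, Cyba, Ncf1, Ncf4, Rac2 and Nox4. They were chosen by the group means of these same arrays with and without KB-R7934, so their responses to the compound are given as a description, with standard errors and without a test. Of the 6 genes, 4 had a transcript cluster (a set of probes read as 1 value) among the 36685 clusters on the array. Cybb was read on the cluster that the study's supplementary table pairs with it, and Cyba, Ncf1 and Rac2 each on the only cluster with that symbol in the platform's probe table. The probe table used here names no cluster for Ncf4 or Nox4, and neither gene was analysed.

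The 18 arrays held RNA of ventricular cardiomyocytes isolated from newborn rats and cultured for 3 days, with 3 biological replicates in each of 6 groups. Each array combined 2 to 6 technical replicates. In the stretch experiment, cells were stretched biaxially by 20% for 24 h with 10 µM KB-R7934, stretched without it, or kept static. By the study's methods the stretch was cyclic, and cells were incubated with inhibitors before a trigger began. Tachycardia was imitated by pacing for 3 h at 8 Hz with 10 µM KB-R7934 or at 8 Hz without it, with pacing at 1 Hz as the control. KB-R7934, which the study also spells KB-R7943, blocks NCX, the sodium-calcium exchanger, when it runs in reverse. The study's methods state the size of the stretch differently from the sample labels, and the value of the labels is given. All groups shared the isolation of Wistar rat hearts, serum-free medium and bromodeoxyuridine against dividing cells. Stretch and static cells grew on flexible membranes and paced cells on gelatin-coated dishes. No array held unstimulated cells that received KB-R7934, so the compound was read against the trigger alone and against the untreated control.

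The phagocyte oxidase moves electrons from NADPH across a membrane to oxygen, which yields superoxide. Its membrane core is flavocytochrome b558, made of gp91phox (NOX2, encoded by Cybb) and p22phox (Cyba). On activation the cytosolic organiser p47phox (Ncf1), with p40phox (Ncf4) among its partners, moves to that core together with a Rac GTPase, which is Rac2 in many blood cells. Cybb, Ncf1 and Rac2 are best known from macrophages and neutrophils, whereas p22phox also partners with NOX4 (Nox4) in other cell types, among them heart and vessel cells.

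The label of the cells was checked first. The 7 measured cardiomyocyte markers averaged between 11.53 and 12.33 on the log2 scale on the 18 arrays. The 10 fibroblast markers averaged between 8.39 and 9.47. The 19 measured macrophage markers, of 25 listed, averaged between 5.26 and 7.29. The study describes the culture as enriched in myocytes by desmin staining, not pure, and the cells behind a signal are not known. In such bulk RNA, fewer cells of a type and less RNA per cell cannot be told apart. On the 9 arrays of the stretch experiment, replicate 3 had the highest macrophage average of its group in all 3 groups (5.92 with KB-R7934, 7.29 with stretch alone and 7.02 in static control). Every array median lay between 5.26 and 5.34.

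Promoter sequences were available from RefSeq for 3 of the 4 measured subunits, and the 250 bases before the transcript start are shown here (build GRCr8) because these genes differed in their responses below. Capitals mark GAGGAA, a form of the site that the myeloid factor PU.1 reads, and CCAAT, the CCAAT box. Each was searched on both strands (TTCCTC and ATTGG on the opposite strand). Shorter and other forms of the PU.1 site were not searched, so a window without capitals may still hold them. The Cybb window lies at chrX:16065066-16065315 on the minus strand, the Cyba window at chr19:67404215-67404464 on the minus strand and the Ncf1 window at chr12:28121635-28121884 on the plus strand.
Cybb: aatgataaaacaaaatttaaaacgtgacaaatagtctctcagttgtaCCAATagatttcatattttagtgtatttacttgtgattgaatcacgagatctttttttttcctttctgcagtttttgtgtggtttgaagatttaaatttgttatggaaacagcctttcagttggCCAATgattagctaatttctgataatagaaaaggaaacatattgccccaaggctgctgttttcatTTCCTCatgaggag
Cyba: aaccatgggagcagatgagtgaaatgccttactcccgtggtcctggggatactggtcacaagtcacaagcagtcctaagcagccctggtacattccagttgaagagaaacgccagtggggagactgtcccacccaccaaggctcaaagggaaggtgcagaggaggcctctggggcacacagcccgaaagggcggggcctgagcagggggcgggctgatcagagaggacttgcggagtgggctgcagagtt
Ncf1: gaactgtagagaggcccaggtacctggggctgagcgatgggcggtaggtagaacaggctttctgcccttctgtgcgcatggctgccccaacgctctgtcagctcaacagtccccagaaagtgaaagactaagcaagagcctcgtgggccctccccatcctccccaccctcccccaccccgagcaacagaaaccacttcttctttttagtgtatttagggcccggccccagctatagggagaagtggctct
The Cybb window held CCAAT beginning 203 and 79 bases before the start, and GAGGAA on the opposite strand beginning 14 bases before it. The Cyba and Ncf1 windows held neither string. Of 33469 rat promoter windows of this length, 23.3% held GAGGAA, 34.0% held CCAAT and 7.7% held both, on either strand. These are matches of letters, and binding was not measured.

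Cybb, the catalytic subunit, had the lowest values of its experiment in stretched cells with KB-R7934. The 3 replicates read 4.89, 4.37 and 6.00 on the log2 scale in stretched cells with KB-R7934, against 6.70, 6.13 and 8.64 in stretched cells without it. In static control they read 7.11, 6.78 and 8.53. Each of the 3 arrays with KB-R7934 lay below each array of both other groups, and replicate 3 was the highest of every group. Replicates 1 and 2 with KB-R7934 lay below the median of all clusters on every array, and whether they were above background is not known. The mean with KB-R7934 was lower by 2.07 than with stretch alone (log2 difference -2.07, SE 0.70, n = 3 arrays per group), a 4.20-fold difference. Against static control it was lower by 2.39 (log2 difference -2.39, SE 0.70). Without stretch replicate 3 the difference between stretch with and without KB-R7934 was -1.33, and without the third replicate in all 3 groups, a setting added after the values were seen, it was -1.78.

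In paced cells Cybb was lower with KB-R7934 as well, by less. The replicates read 6.03, 6.90 and 5.74 at 8 Hz with KB-R7934, 6.85, 7.27 and 7.26 at 8 Hz alone and 6.90, 7.29 and 7.62 at 1 Hz. Replicate 2 with KB-R7934 stood just above the lowest array at 8 Hz alone, so these groups overlapped, while the highest of the 3 and the lowest 1 Hz array were equal to the second decimal. The log2 difference to 8 Hz alone was -0.90 (SE 0.30), a 1.87-fold difference, and that to 1 Hz was -1.05 (SE 0.30). Without replicate 3 in all groups the value against 8 Hz alone was -0.59, and without replicate 2 it was -1.17. The response under stretch minus the response under pacing was -1.16 (SE 0.83), with no test, since both responses were used by the choice of genes. Trigger, duration (24 h against 3 h) and surface also differed together between the 2 responses.

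**Figure D1:**
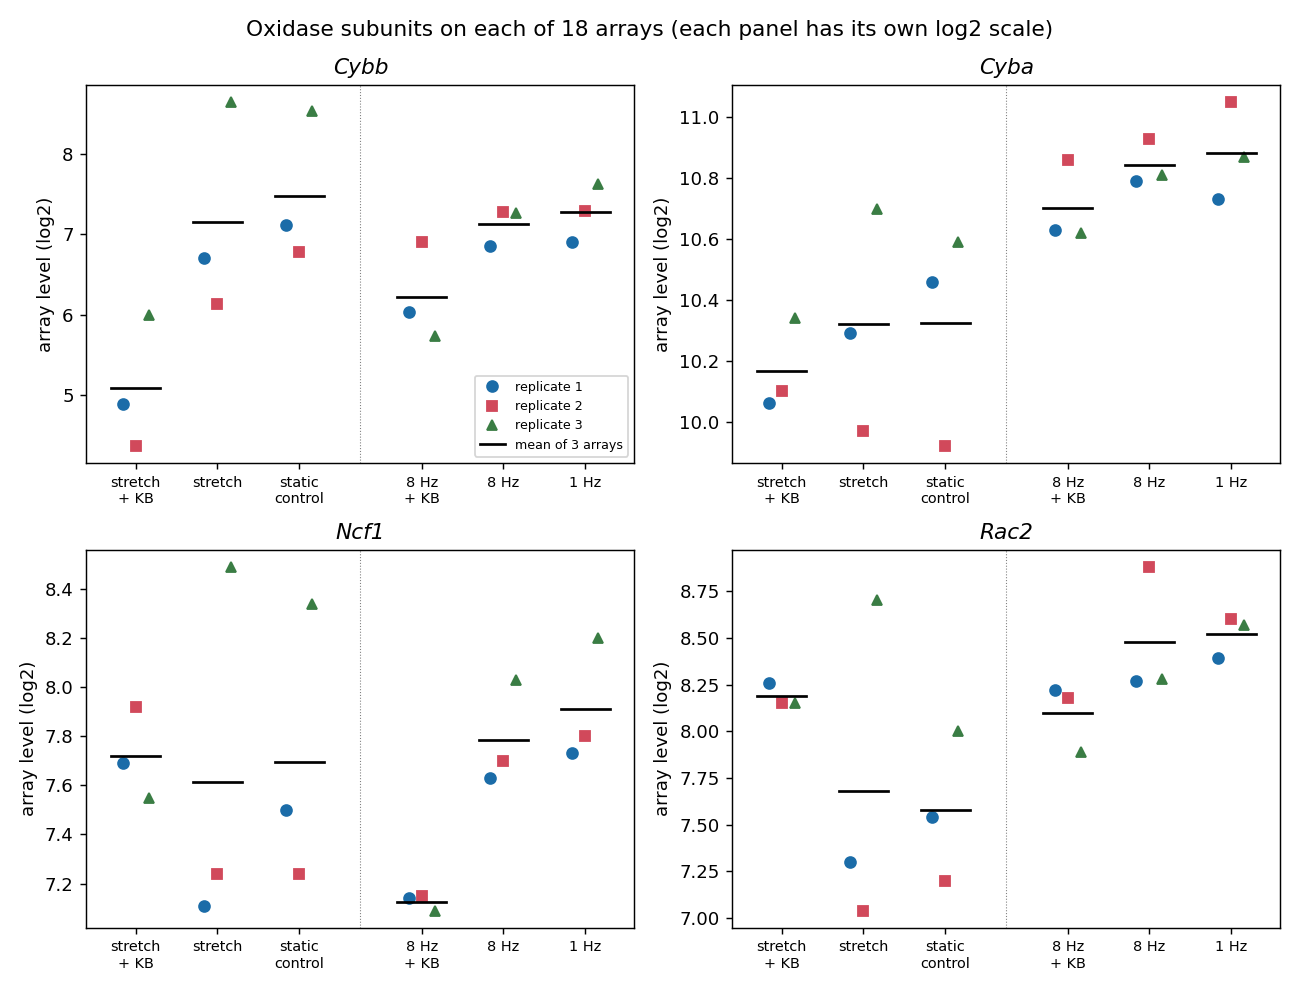
Log2 array level of Cybb, Cyba, Ncf1 and Rac2 on each of the 18 arrays, with the treated groups left of their controls, symbols for replicates 1 to 3 and a bar for the mean of 3 arrays. Cybb with KB-R7934 lay at 4.37 to 6.00 under stretch, below all stretch and static arrays, while Rac2 lay at 8.15 to 8.26 on those arrays.

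Cyba, the stabilising partner of Cybb in the membrane, had overlapping values in all groups of an experiment. Its values were 10.06, 10.10 and 10.34 in stretched cells with KB-R7934, 10.29, 9.97 and 10.70 with stretch alone and 10.46, 9.92 and 10.59 in static control. In paced cells they were 10.63, 10.86 and 10.62 at 8 Hz with KB-R7934, 10.79, 10.93 and 10.81 at 8 Hz alone and 10.73, 11.05 and 10.87 at 1 Hz. Every group spanned part of the range of the others. The log2 difference with KB-R7934 was -0.15 (SE 0.22) under stretch and -0.14 (SE 0.12) under 8 Hz pacing, and without stretch replicate 3 the value under stretch was 0.04.

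Ncf1, the organiser subunit, had lower values with KB-R7934 in the tachycardia experiment and overlapping ones in the stretch experiment. Under stretch it read 7.69, 7.92 and 7.55 with KB-R7934, 7.11, 7.24 and 8.49 without it and 7.50, 7.24 and 8.34 in static control. The KB-R7934 arrays lay inside the range of the other groups, and the log2 difference to stretch alone was 0.10 (SE 0.38). It was -0.15 without stretch replicate 1 and 0.54 without stretch replicate 3. Under 8 Hz pacing Ncf1 read 7.14, 7.15 and 7.09 with KB-R7934, 7.63, 7.70 and 8.03 without it and 7.73, 7.80 and 8.20 at 1 Hz. All 3 arrays with KB-R7934 lay below every other array of the tachycardia experiment. The log2 difference was -0.66 (SE 0.16) to 8 Hz alone, a 1.58-fold difference, and -0.78 (SE 0.16) to 1 Hz.

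Rac2, the GTPase of the complex in blood cells, had a higher mean with KB-R7934 in the stretch experiment and a lower mean in the tachycardia experiment. It read 8.26, 8.15 and 8.15 in stretched cells with KB-R7934, 7.30, 7.04 and 8.70 with stretch alone and 7.54, 7.20 and 8.00 in static control. The KB-R7934 arrays lay above all static arrays and above stretch replicates 1 and 2, but below stretch replicate 3. The log2 difference was 0.51 (SE 0.39) to stretch alone and 0.60 (SE 0.39) to static control. Against stretch alone it became 1.02 without stretch replicate 3 and 0.19 without stretch replicate 2. In paced cells Rac2 read 8.22, 8.18 and 7.89 with KB-R7934, 8.27, 8.88 and 8.28 at 8 Hz alone and 8.39, 8.60 and 8.57 at 1 Hz. The 3 arrays with KB-R7934 lay below both other groups, and the log2 difference was -0.38 (SE 0.18) to 8 Hz alone and -0.43 (SE 0.18) to 1 Hz. Without 8 Hz replicate 2 the value against 8 Hz alone was -0.18.

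Counted over the 4 subunits, the groups with and without KB-R7934 did not overlap for 1 (Cybb) under stretch, where 15.2% of all clusters had groups that did not overlap, and for 2 (Ncf1 and Rac2) under pacing, where the share was 10.4%. Against static control, stretch with KB-R7934 stood apart for 2 (Cybb lower, Rac2 higher; 16.8% of all clusters). Against 1 Hz, 8 Hz with KB-R7934 stood apart for 3 (all but Cyba, each lower, and Cybb only beyond the second decimal; 6.72% of all clusters were apart and lower). The choice of genes used these responses, so nothing is read from the counts.

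The responses were then set against each other on the same arrays, as the value of one subunit minus that of another. This gave 6 pairs in each experiment. The share of other cluster pairs with groups that did not overlap was not computed. The choice of genes used these responses, so nothing is read from which pairs overlapped. Under stretch, Cybb had the lower response in all 3 of its pairs. The log2 response of Cybb minus that of Cyba was -1.92 (SE 0.65), minus that of Ncf1 it was -2.17 (SE 0.58) and minus that of Rac2 it was -2.58 (SE 0.52). In these 3 pairs the arrays with KB-R7934 did not overlap those with stretch alone: Cybb minus Rac2, for one, lay between -3.77 and -2.15 with KB-R7934 and between -0.90 and -0.07 with stretch alone. Leaving out single arrays moved the 3 values between -1.37 and -3.05, with stretch replicate 3 behind the smallest (Cybb minus Cyba) and stretch with KB-R7934 replicate 3 behind the largest (Cybb minus Rac2).

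The other 3 subunits lay closer together under stretch. The response of Cyba minus that of Ncf1 was -0.25 (SE 0.32), that of Cyba minus Rac2 was -0.66 (SE 0.29) and that of Ncf1 minus Rac2 was -0.40 (SE 0.18). Only the last of these had arrays that did not overlap, at -0.60 to -0.23 with KB-R7934 and -0.22 to 0.20 with stretch alone.

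Under 8 Hz pacing the responses lay closer to each other. Cybb minus Cyba was -0.77 (SE 0.28), and Cyba minus Ncf1 was 0.52 (SE 0.19), each with arrays that did not overlap. Cybb minus Ncf1 was -0.24 (SE 0.30) and Cybb minus Rac2 was -0.52 (SE 0.31), with overlapping arrays. Cyba minus Rac2 was 0.24 (SE 0.16) and Ncf1 minus Rac2 was -0.28 (SE 0.25), also overlapping. Leaving out single arrays moved Cybb minus Ncf1 between -0.57 (without 8 Hz with KB-R7934 replicate 2) and -0.02 (without its replicate 3), and Cybb minus Rac2 between -0.82 (without 8 Hz with KB-R7934 replicate 2) and -0.36 (without 8 Hz replicate 3). Cyba had the value nearest to 0 under pacing. For Ncf1 the response under stretch minus that under pacing was 0.77 (SE 0.44), for Rac2 it was 0.89 (SE 0.46) and for Cyba it was -0.01 (SE 0.26), again without a test. Trigger, duration and surface differed together here too.

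**Figure D2:**
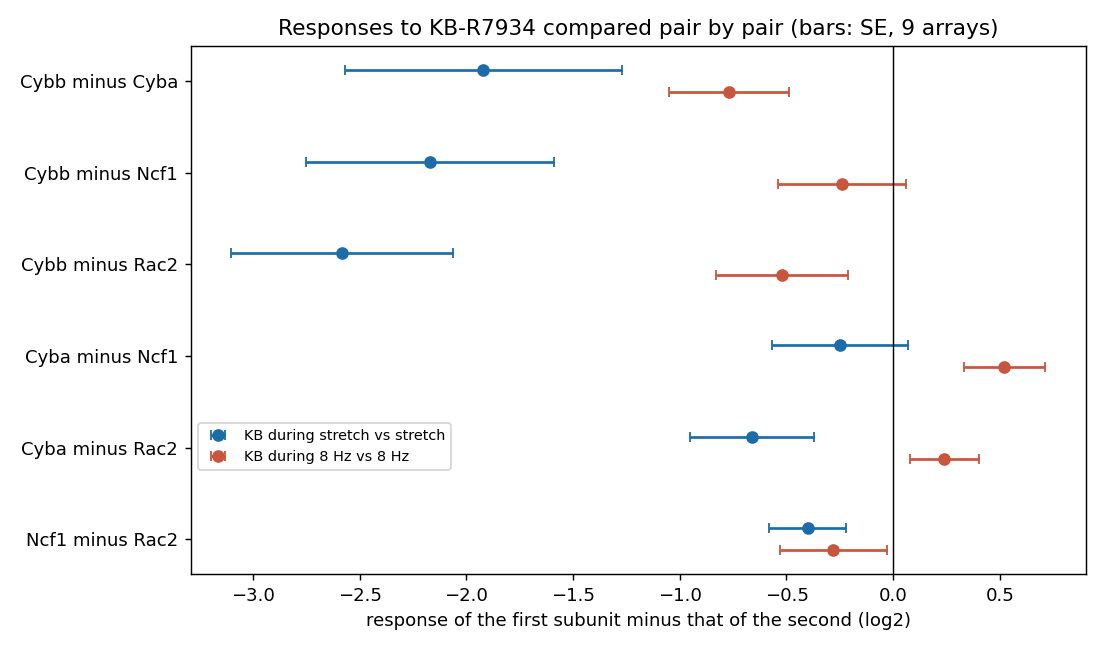
Response of one subunit to KB-R7934 minus that of another (log2, bars are SE from the 9 arrays of an experiment), under stretch (blue) and 8 Hz pacing (red). The 3 pairs with Cybb lie at -1.92 to -2.58 under stretch, and at -0.77 to -0.24 under pacing.

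The triggers without the compound were compared with their controls by limma, to ask whether stretch or rapid pacing changed the subunits. The stretch and 8 Hz arrays were also the reference of the KB-R7934 contrasts that the choice of genes used. The p-values here are therefore not independent of that choice. None of the 4 passed. For stretch against static control the limma log2 differences were -0.32 for Cybb (SE 0.70, adjusted p = 0.96), -0.01 for Cyba (SE 0.22, adjusted p = 0.997), -0.08 for Ncf1 (SE 0.38, adjusted p = 0.981) and 0.10 for Rac2 (SE 0.39, adjusted p = 0.979). For 8 Hz against 1 Hz they were -0.14 for Cybb (SE 0.30), -0.04 for Cyba (SE 0.12), -0.12 for Ncf1 (SE 0.16) and -0.05 for Rac2 (SE 0.18), each with a limma adjusted p of 1. At the study's threshold (unadjusted limma p under 0.05 and a change of at least 1.2-fold), 0 of the 4 were counted for either trigger. Over all clusters 3.12% were counted as higher and 4.33% as lower with stretch, and 2.09% and 1.82% with pacing. No cluster of the array had an adjusted p under 0.05 for either trigger, while 2875 and 1473 had an unadjusted p under 0.05. The difference between the stretch effect and the pacing effect had limma adjusted p-values of 0.986 to 0.995 for the 4 subunits. The values under stretch rested on single arrays. Leaving out 1 array moved Cybb between -1.06 (without stretch replicate 3) and 0.21 (without static control replicate 3), and Ncf1 between -0.51 and 0.25 for the same arrays. Rac2 moved between -0.42 (without stretch replicate 3) and 0.42 (without stretch replicate 2), and Cyba between -0.21 (without static control replicate 2) and 0.17 (without stretch replicate 2). For 8 Hz against 1 Hz all values without 1 array lay between -0.33 (Cybb without 1 Hz replicate 1) and 0.05 (Rac2 without 8 Hz replicate 1 or 3), and each of the 4 subunits changed sign in at least 1 of them. None of the 4 was counted for either trigger under any of these settings.

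The controls of the experiments offered a comparison without the compound and without either trigger, in which surface, duration and pacing at 1 Hz differed together. Cyba was lower in static control than at 1 Hz, by 0.56 (log2 difference -0.56, SE 0.19, limma adjusted p = 0.145). Rac2 was lower by 0.94 (log2 difference -0.94, SE 0.32, limma adjusted p = 0.166). For both genes the 3 static arrays lay below the 3 arrays at 1 Hz, as 20.2% of all clusters did in one direction or the other. Both were counted at the study's threshold, where 7.43% of clusters were higher and 6.15% lower in static control, and neither passed the adjusted threshold, which 2.16% of clusters did. Without static control replicate 2, Cyba stood at -0.36 (limma adjusted p = 0.466) and Rac2 at -0.75 (adjusted p = 0.442), and neither was counted. Cybb was at 0.20 (SE 0.59, limma adjusted p = 0.929) and Ncf1 at -0.22 (SE 0.31, adjusted p = 0.836). The static and 1 Hz arrays are also those against which the triggers were set. Of the 19 macrophage markers, 2 were counted as higher and 7 as lower in static control, with a median of -0.65, and the part of this in the values of Cyba and Rac2 was not tested.

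Within groups the 4 subunits varied together in the stretch experiment and less so in the tachycardia experiment. Deviations of the arrays from their group means gave a Pearson r of 0.84 between Cybb and Cyba, 0.80 between Cybb and Rac2 and 0.73 between Cybb and Ncf1 (Spearman rho 0.82, 0.78 and 0.63, n = 18 arrays). With the mean of each replicate number taken out as well, these r were 0.32, 0.54 and 0.60. Ncf1 and Rac2 had an r of 0.93 over the 9 arrays of the stretch experiment and -0.03 over the 9 of the tachycardia experiment. Arrays with the same number may share an isolation, and the points share arrays across genes, so these are descriptions only. Between Cyba and Ncf1 the corresponding r were 0.74 and 0.03, and Cybb had r of 0.76 to 0.87 with the other 3 under stretch and 0.47 to 0.71 under pacing. The within-group SD was larger in the stretch experiment for all 4 genes. It was 1.04 for Cybb under stretch and 0.43 under pacing, 0.31 and 0.13 for Cyba, 0.56 and 0.19 for Ncf1, and 0.57 and 0.24 for Rac2.

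Over the 18 arrays the same deviations went with the average of the 19 macrophage markers, but for Ncf1 and Rac2 not in every group. Cybb had a Pearson r of 0.95 with that average, Cyba 0.91, Rac2 0.84 and Ncf1 0.78 (Spearman rho 0.90, 0.92, 0.72 and 0.65, n = 18 arrays). The highest stretch array on the marker average, replicate 3 of stretch alone, was also the highest array of the stretch experiment for each of the 4 subunits. In stretched cells with KB-R7934 the marker average deviated by -0.27, -0.13 and 0.4 in replicates 1 to 3. Ncf1 deviated there by -0.03, 0.2 and -0.17, and Rac2 by 0.08, -0.04 and -0.04. Cybb (-0.2, -0.71 and 0.91) and Cyba (-0.11, -0.07 and 0.17) were highest in replicate 3, as the average was. The r with the marker average were not computed by experiment.

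**Figure D3:**
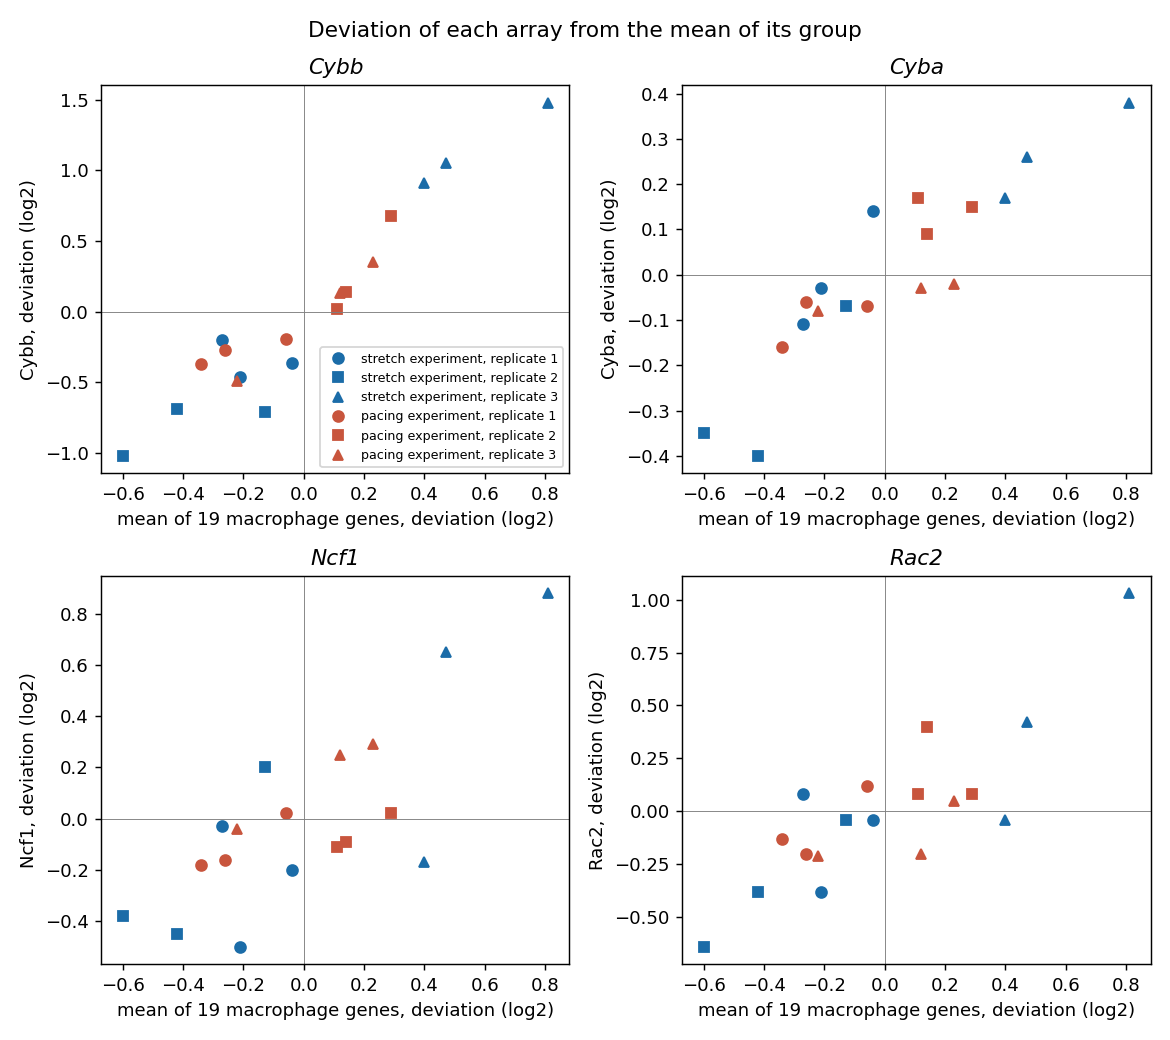
Deviation of each array from the mean of its group (log2), for the average of 19 macrophage markers (horizontal axis) and each subunit (vertical axis), by experiment and replicate. The points of Cybb (Pearson r 0.95) and Cyba (0.91) follow the marker average most closely, and those of Ncf1 (0.78) least.

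Macrophage markers had lower values with KB-R7934 as well. The marker list was chosen with earlier results of these data known, so its counts are a description. Under stretch, 18 of the 19 had a lower mean with KB-R7934, and 12 were counted as lower and 0 as higher at the study's threshold, where 4.52% of all clusters were counted as lower and 4.60% as higher. Their median was -1.09, against 0.01 over all clusters. The marker average was between 5.26 and 5.92 with KB-R7934 and between 5.88 and 7.29 with stretch alone. Under 8 Hz pacing 17 had a lower mean, with 10 counted as lower and 1 as higher, where 2.50% of all clusters were counted as lower and 3.27% as higher. Their median was -0.57, against 0.00 over all clusters, and the average was between 6.19 and 6.70 with KB-R7934 and between 6.69 and 7.08 with 8 Hz alone. With replicate 1 left out of all groups, a setting added after the values were seen, 2 markers were counted as lower under stretch, and with replicate 3 left out it was 9. Under pacing 1 was counted as lower without replicate 3.

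The genes counted as lower with KB-R7934 in both experiments were Fcgr1a, the high-affinity IgG receptor, Adgre1, the F4/80 antigen, Ptprc (CD45), the signalling adaptors Tyrobp and Fcer1g, the calcium-binding protein Aif1 and the actin-bundling protein Lcp1. Tyrobp differed by -1.89 (SE 0.56) under stretch and -0.87 (SE 0.28) under pacing, Adgre1 by -1.75 (SE 0.55) and -0.57 (SE 0.16) and Ptprc by -1.45 (SE 0.61) and -1.01 (SE 0.30). Lyz2, the lysozyme of macrophages, had the widest difference under stretch (-2.59, SE 0.75) and Cd53, a leukocyte tetraspanin, under pacing (-1.04, SE 0.36). The 1 marker counted as higher was the chemokine receptor Cx3cr1, under pacing (0.48, SE 0.17). None of these passed an adjusted p of 0.05 by limma. Neutrophils are the other cells known for this oxidase. Of their 8 measured markers 2 were counted as higher and 0 as lower with KB-R7934 in each experiment (medians 0.10 and 0.07). Over all clusters 4.60% were counted as higher under stretch and 3.27% under pacing. Of 5 lymphocyte markers 0 were counted. Most neutrophil markers and all lymphocyte markers (means 3.14 to 4.28) were dimmer than the median cluster (5.29). The neutrophil markers brighter than it were Camp (mean 7.22) and Lcn2 (11.52). Whether the dim markers were above background is not known, so counts of those cannot show whether RNA of these cells changed. Of 7 cardiomyocyte markers 1 was counted as higher under stretch and 0 under pacing, and of 10 fibroblast markers 1 as higher and 2 as lower under stretch and 0 under pacing. Of 6 endothelial markers 1 was counted as lower in each experiment, the angiopoietin receptor Tek under stretch (-0.43, SE 0.14) and its relative Tie1 under pacing (-0.59, SE 0.21), with medians of -0.14 and -0.22, and the 1 measured smooth muscle marker was counted as lower under stretch (-0.52). Each of the calls in the cardiomyocyte, endothelial and smooth muscle lists was lost without at least 1 of the replicate numbers, and without replicate 3 in all groups 0 neutrophil markers were counted in either experiment.

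The responses of the subunits were also set against that of the marker average on the same arrays. Under stretch the response of Cybb minus that of the average was -1.11 (SE 0.45), whereas for Cyba it was 0.81 (SE 0.22), for Ncf1 1.06 (SE 0.28) and for Rac2 1.46 (SE 0.21). The average itself differed by -0.96 (SE 0.44) with KB-R7934. Under pacing, where the average differed by -0.53 (SE 0.22), the same subtraction gave -0.37 (SE 0.17) for Cybb, 0.39 (SE 0.15) for Cyba, -0.13 (SE 0.17) for Ncf1 and 0.15 (SE 0.19) for Rac2. These responses are the ones the genes were chosen on, so the differences are given without a test, and the part of macrophage RNA in the responses of the 4 subunits was not tested.

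**Figure D4:**
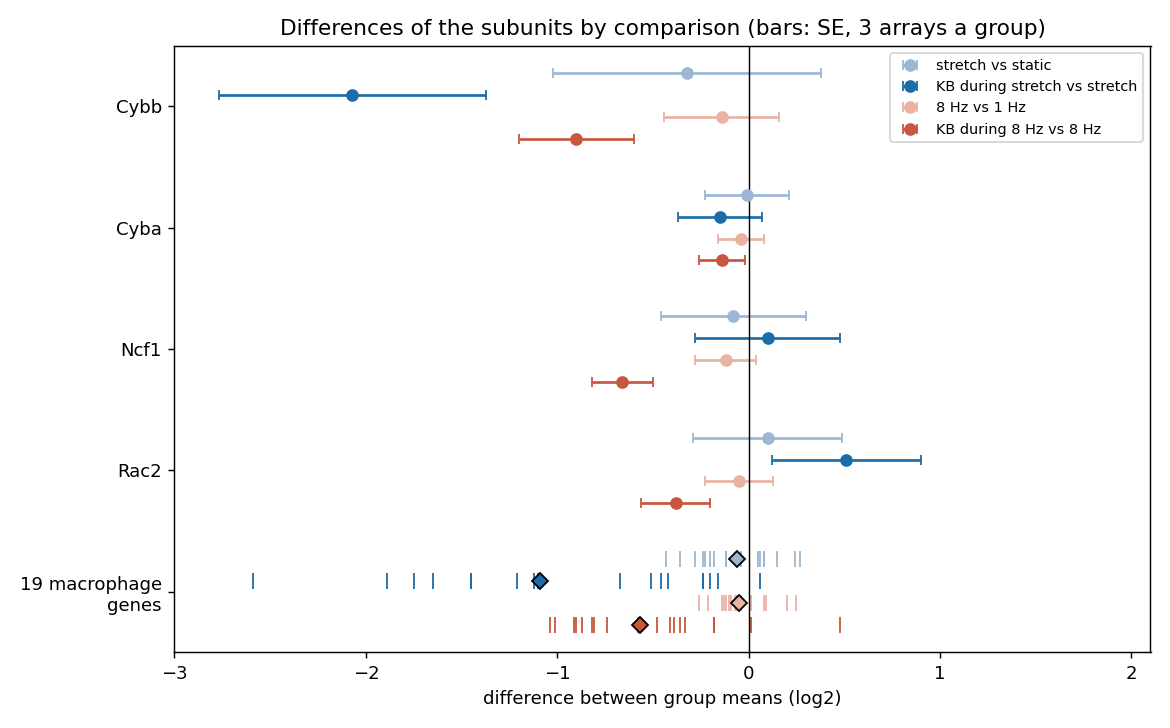
Log2 differences between group means of the 4 subunits (points, bars are SE) and of the 19 measured macrophage markers (ticks, with the median as a diamond) in 4 comparisons. Cybb lies at -2.07 under stretch and -0.90 under pacing with KB-R7934, beside marker medians of -1.09 and -0.57. For the triggers alone the subunits lie between -0.32 (Cybb, SE 0.70) and 0.10 (Rac2, SE 0.39), both under stretch. The marker medians there are -0.06 under stretch and -0.05 under pacing.

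The genes most like each subunit across the arrays were looked up among 8889 clusters with 1 symbol and a mean at or above the median of all clusters. Likeness was the Pearson r over 18 arrays after each experiment was centred on its mean, so the KB-R7934 groups add to it. The 8 nearest to Cybb were Tyrobp and Fcer1g (r 0.97 each), the beta 2 integrin Itgb2 and the growth factor receptor Csf1r (0.96 each), Adgre1 and Lyz2 (0.95 each), Fcgr1a (0.94) and Lrrc25, a leucine-rich repeat protein (0.93). All but Lrrc25 stood on the macrophage list. Nearest to Cyba were the actin-capping protein Capg (0.91), Spi1, which encodes PU.1 (0.91), and Ebi3, a cytokine subunit (0.90). Nearest to Ncf1 were Ift22, of intraflagellar transport (0.84), Pilrb1l1 (0.81) and Pld3, of the phospholipase D family (0.79), and to Rac2 the endosomal GTPase Rab11a (0.81), the galectin Lgals3 (0.80) and the mitochondrial epimerase Mcee (0.79). None of the last 6 was on the macrophage list, which does not hold every gene of macrophages.

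The counts of other parts of the oxidase were read against the shares over all clusters. Of 17 listed further oxidases, organisers and assembly factors 12 were measured, and 0 were counted with KB-R7934 under stretch, where 4.60% of all clusters were counted as higher and 4.52% as lower. Under pacing 1 was counted as higher, the podosome adaptor Sh3pxd2b, at 0.32 (SE 0.13), where 3.27% of all clusters were, and 0 were counted without replicate 1 or without replicate 3 in all groups. The median of the list was 0.13 under stretch and 0.14 under pacing. With stretch alone Hvcn1, the proton channel that balances the charge of the oxidase, was the 1 gene of the 12 counted, at -0.66 (SE 0.18, limma adjusted p = 0.428), where 4.33% of all clusters were counted as lower.

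Of 22 listed activators of the oxidase and of Rac 16 were measured. With KB-R7934 under stretch 4 were counted as lower, where 4.52% of all clusters were, and 0 as higher, with a list median of -0.26 against 0.01 over all clusters. The widest differences were Fcgr1a (-1.12, SE 0.43), the integrin Itgam (-0.67, SE 0.18) and the kinase Prkca (-0.64, SE 0.16). Under pacing 2 were counted as lower, Fcgr1a (-0.90, SE 0.32) and Itgb2 (-0.81, SE 0.23), with a median of -0.22 against 0.00, where 2.50% of all clusters were counted as lower. Without replicate 1 in all groups 1 was counted under stretch and 4 under pacing, and without replicate 3 it was 0 under pacing. Fcgr1a, Itgam and Itgb2 are macrophage markers as well. In static control against 1 Hz, 7 of the 16 were counted as lower, where 6.15% of all clusters were, and S100a8, a calcium-binding protein of myeloid cells, had the widest difference (-4.07, SE 0.30, limma adjusted p = 6.76e-06). The S100a8 mean in static control was 3.09, below the lowest lower quartile of any array (3.75). Whether it was above background there is not known, so the size of the difference is uncertain.

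Among 6 measured of 10 listed transcription factors of the phagocyte lineage, Spi1 was the 1 counted under pacing with KB-R7934, as lower (-0.33, SE 0.14), where 2.50% of all clusters were. Cebpb, a factor of inflammatory genes, was the 1 counted under stretch, as higher (0.39, SE 0.17), where 4.60% of all clusters were. Without any one of the replicate numbers 0 of the 6 were counted as lower under pacing, and without replicate 2 or 3 in all groups 0 were counted as higher under stretch. Of 9 measured of 12 listed enzymes that remove superoxide and peroxide, 0 were counted with KB-R7934 under stretch and 1, the catalase gene Cat, as lower under pacing (-0.27, SE 0.11). The share over all clusters there was 2.50%, and without any one of the replicate numbers the count of this list was 0. Sod2 and Sod3, the mitochondrial and the secreted superoxide dismutase, differed between the controls, at -1.02 (SE 0.20, limma adjusted p = 0.0156) and -1.18 (SE 0.21, adjusted p = 0.00913) in static control against 1 Hz.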

How the data were processed

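Total RNA of 18 samples, each combined from technical replicates, was hybridised to Rat Gene 2.0 ST arrays. The deposited log2 values, 1 per transcript cluster and array, were made by the authors with Partek Genomics Suite; the background correction and normalization are not given in the sources used here. No detection call was used here, so whether a low value lies above background is unknown, and no further normalization was applied.

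Groups follow the sample labels. Each comparison was fitted with limma 3.58.1 (R 4.3.3) over the 9 arrays of an experiment, or over all 18 for static control against 1 Hz, with empirical Bayes moderation and Benjamini-Hochberg adjustment over 36685 clusters. The study's threshold was an unadjusted p under 0.05 and a change of at least 1.2-fold. Whether the study's own p was adjusted is unclear.

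Gene names came from the platform's probe table, in which 14824 clusters have 1 symbol, 829 several and 21032 no entry; none was named from several. A list gene was read on its brightest cluster with 1 symbol. The genes, lists and markers were chosen with earlier results of these data known. Genes named from lists were those counted with KB-R7934 in both experiments in the same direction, and up to 3 per list and contrast with the largest difference. The neutrophil, cardiomyocyte, fibroblast and smooth muscle lists are exceptions, as their counted genes are given as counts without names. The 8 genes most like Cybb and 3 most like each other subunit were named by Pearson r. Genes outside this rule (those of the comparisons without KB-R7934, Cx3cr1, Camp and Lcn2) were named after their values were seen. The fitting was tested on simulated data. Precision is limited by having 3 arrays a group. Alternatives were a replicate block, other sets of arrays, other moderation and normalization, filters, the methods' two-way ANOVA and t-test, and leaving out each array.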

Additional observations from a re-analysis of the deposited data

How the results depend on the processing

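Of 19 alternatives for the differences of the 4 subunits with KB-R7934, 8 change only the SE or the clusters tested and cannot move a difference of group means. Under the other 11 (3 of them, leaving a replicate number out of all groups, were chosen after seeing the data) the differences moved by less than 1 SD between replicates, and Cybb (-2.58 to -1.33 under stretch, -1.24 to -0.59 under pacing), Rac2 under both triggers, and Cyba and Ncf1 under pacing kept their sign. Under stretch Cyba changed sign in 1 alternative (0.04) and Ncf1 in 4, over a range of -0.19 to 0.63. Cybb minus Rac2 under pacing was between -0.95 (without replicate 2 in all groups) and -0.22 (without replicate 3).

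Same-numbered arrays of different groups correlated in their deviations by 0.01 to 0.29 in the stretch experiment and -0.01 to 0.26 in the tachycardia experiment, and differently numbered ones by -0.24 to 0.05 and -0.27 to 0.07. The labels do not say that a number marks 1 isolation, so the numbers were not taken as pairs. A replicate block, which cannot move a difference of group means here, gave 3482 clusters at the study's threshold for stretch, 1900 for 8 Hz, 4289 for KB-R7934 under stretch and 2882 under pacing. No paired analysis was possible for the controls because the numbers lie within experiments, and neither the block nor the two-way ANOVA was run there.

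Counts of clusters at the study's threshold depended on the setting. For stretch the main count of 2734 was 1294 over clusters with 1 symbol, 1645 by the methods' t-test, 877 at 1.5-fold and 1600 to 3687 with arrays left out. For 8 Hz, 1433 became 495, 891 and 498 under the first 3 of these. For KB-R7934 under stretch, 3348 became 1803, 2211 and 1077, and 2208 to 3692 with arrays left out. For KB-R7934 under pacing, 2115 became 954, 1358 and 711 (1410 to 2542 with arrays left out). For static control, 4979 became 2720 over clusters with 1 symbol and 1693 at 1.5-fold. Fewer clusters were tested with 1 symbol. At 1.5-fold the same fit was held to a stricter cutoff, so its count could not rise. For the other settings the cause was not tested. At an adjusted p under 0.05 the counts ranged over 0 to 26 (stretch), 0 (8 Hz), 0 to 110 and 0 to 5 (KB-R7934 under stretch and pacing) and 0 to 1068 (static control, 792 as reported and 0 by the methods' t-test).

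Cyba in static control was not counted by the methods' t-test, at 1.5-fold or without replicate 2 of both experiments (-0.27), nor was Rac2 without replicate 1 (-0.99) or 2 (-0.71), and Ncf1 was counted without replicate 3 (-0.40). The second cluster planned as an alternative for a subunit did not exist.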
